A study of Rattus norvegicus with 50 samples.

Results

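Smooth muscle contraction was followed through 9 genes: Des, Acta2, Actg2, Cnn1, Myh11, Tagln, Lmod1, Mylk and Myl9. They were chosen by name from the 13438 genes measured, and a gene with several probe sets was read from the brightest of them over the 50 arrays. All 9 were measured, through 11 probe sets. Smooth muscle cells wrap the bronchioles and the blood vessels of the lung and set their width. Calcium bound to calmodulin switches on myosin light chain kinase (Mylk), which phosphorylates the regulatory light chain (Myl9), and the myosin heavy chain (Myh11) then pulls on filaments of alpha and gamma smooth muscle actin (Acta2, Actg2). Calponin (Cnn1) and transgelin (Tagln) bind along those filaments, leiomodin 1 (Lmod1) starts new ones, and desmin (Des) is the intermediate filament that ties the contractile units together. Several of these proteins are not private to smooth muscle: desmin is abundant in heart and skeletal muscle, alpha smooth muscle actin is made by pericytes and myofibroblasts, and a long form of the kinase is found in endothelium.

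The lung tissue came from male F344 rats, the Fischer inbred strain, 7 to 8 weeks old on receipt, that breathed an aerosol of nickel subsulfide (Ni3S2), a poorly soluble nickel compound. Controls had a target of 0 mg/m3, the lower concentrations were 0.04 and 0.08 mg/m3 (about 0.03 and 0.06 mg of nickel per m3), and the higher ones were 0.15 and 0.60 mg/m3 (about 0.11 and 0.44 mg of nickel per m3), for 6 hours on each of 5 days per week. Rats were exposed for 4 weeks (20 exposure days) or for 1 week (5 exposure days), each time with its own controls, which gave 10 groups of 5 arrays. Per the labels, RNA was taken from distal airway tissue of the right caudal lung, and of 8 rats per group the 5 with the best RNA were used, so the spread between arrays is that between selected animals. Values are log2 array signals. Group values are means ± SD (n = 5), and differences are log2 differences ± SE from limma with adjusted p-values over all genes. Calls were made at adjusted p-values under 0.05, and the 5 arrays per group limit the precision. Levels of different genes are not compared, since each probe set has its own brightness.

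The groups differed beyond the smooth muscle genes. The first principal component over all genes held 63.5% of the variance, and the 1-week arrays at 0 and 0.04 mg/m3 lay between -84.9 and -43.6 on it, while all 25 arrays of the 4-week groups lay between 9.53 and 40.9. The Pearson correlation of a member with this component ran from -0.81 for Acta2 to 0.73 for Mylk. The tissue was lung on every array: surfactant protein C (Sftpc) stood at 13.28 to 13.64 and the club cell secretory protein (Scgb1a1) at 13.44 to 13.70. Striated muscle genes were uneven, since Myh6, the heart muscle myosin, ran from 3.54 to 12.13 and Ckm, the muscle creatine kinase, from 4.48 to 11.90. Batches of arrays could not be tested, since scan or extraction dates were not used here. In bulk tissue, fewer smooth muscle cells and less RNA per cell cannot be told apart.

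Smooth muscle genes are known to be switched on by serum response factor, which binds CArG boxes with myocardin as its partner, and MCAT elements serve other factors of muscle genes. RefSeq promoter entries on GRCr8 were found for 5 of the 9 members, Des, Acta2, Actg2, Cnn1 and Mylk, and the 250 bases before the start were searched on both strands. Acta2 is shown as a typical member, Des as the one that changed the most and Mylk as one that moved apart from most others. Promoters are printed 5′ to 3′ on the gene's strand, with matches in capitals.
Acta2 promoter (chr1:241172504-241172753, minus strand): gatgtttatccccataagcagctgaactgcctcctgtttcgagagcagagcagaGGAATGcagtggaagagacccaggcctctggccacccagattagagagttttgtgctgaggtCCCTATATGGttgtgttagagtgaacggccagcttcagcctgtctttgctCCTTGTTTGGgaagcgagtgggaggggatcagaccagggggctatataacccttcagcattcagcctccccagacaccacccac
Des promoter (chr9:84299376-84299625, plus strand): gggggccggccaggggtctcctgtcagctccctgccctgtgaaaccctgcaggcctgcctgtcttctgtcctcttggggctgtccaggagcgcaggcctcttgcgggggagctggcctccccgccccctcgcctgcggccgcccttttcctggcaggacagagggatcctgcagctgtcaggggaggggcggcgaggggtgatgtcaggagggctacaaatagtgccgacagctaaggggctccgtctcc
Mylk promoter (chr11:79498575-79498824, minus strand): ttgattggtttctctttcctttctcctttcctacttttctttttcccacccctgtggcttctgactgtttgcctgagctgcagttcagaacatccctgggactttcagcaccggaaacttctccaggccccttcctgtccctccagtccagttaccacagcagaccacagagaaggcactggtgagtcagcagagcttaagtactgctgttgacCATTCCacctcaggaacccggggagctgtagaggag

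In Acta2 the capitals mark 2 CArG-like boxes, which begin 134 and 84 bases before the start, and an MCAT motif (CATTCC, here as GGAATG on the opposite strand) that begins 196 bases before it. Mylk has 1 match to CATTCC, 36 bases before the start listed for it. Neither motif was found in the windows of Des, Actg2 and Cnn1. The windows of Actg2 (chr4:117594040-117594289, minus strand) and Mylk lie inside their genes, whose spans run to 117604379 and 79535450. For Actg2 and Mylk the letters thus belong to an internal start, and the outermost start was not searched. Over the 33469 promoters of the table, 1.5% held a strict CArG box, 8.08% held a box with at most 1 C or G among its middle letters, as in Acta2, and 12.1% held CATTCC. The looser definition was chosen after the sequences had been seen. The motifs did not overlap, and a match is a description of letters, not a binding site.

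**Figure D1:**
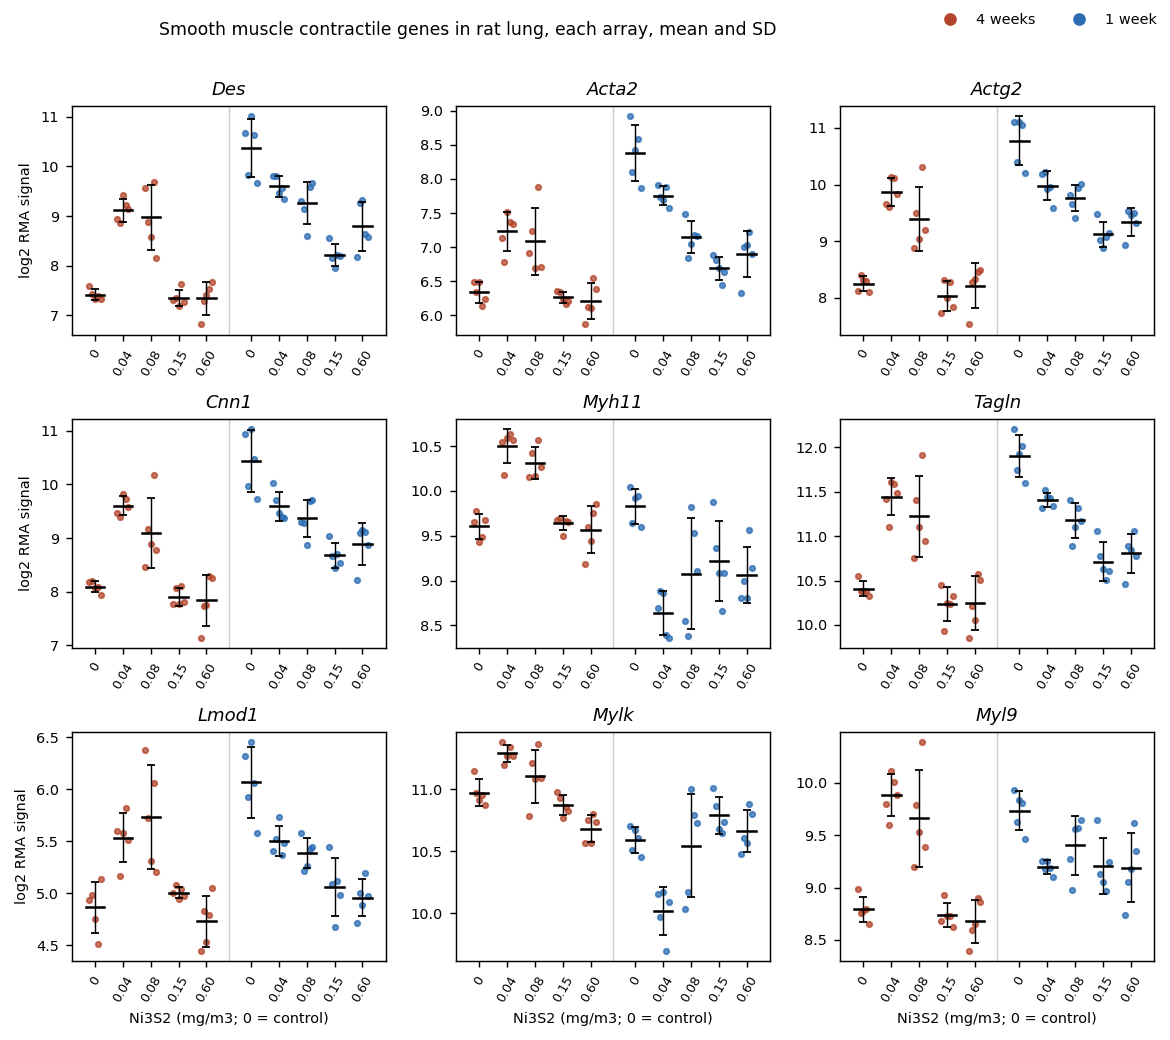
Log2 signal (y axis) of each of the 9 genes against the Ni3S2 concentration in mg/m3 (x axis), after 4 weeks (red, left) and 1 week (blue, right); points are arrays, bars are the mean and SD of 5 arrays. At 4 weeks 8 of the 9 genes stood above the controls at 0.04 and 0.08 mg/m3 and near them at 0.15 and 0.60 mg/m3, and at 1 week most stood highest in the controls.

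Across the 10 groups, the 1-week controls had the highest mean of Des, Acta2, Actg2, Cnn1, Tagln and Lmod1, and the 4-week group at 0.04 mg/m3 had the highest mean of Myh11, Mylk and Myl9. The lowest levels of most members were in the 4-week groups at 0.15 and 0.60 mg/m3. Des showed the widest span, with a mean of 7.34 ± 0.33 at 0.60 mg/m3 for 4 weeks and 10.36 ± 0.58 in the 1-week controls. Its order from the top was the 1-week control, 0.04 and 0.08 mg/m3 groups, then 0.04 and 0.08 mg/m3 at 4 weeks, then 0.60 and 0.15 mg/m3 at 1 week, then the remaining 4-week groups. The single gap between neighbours in that order, with no overlap of arrays, lay between 0.15 mg/m3 at 1 week (7.96 to 8.56) and the 4-week controls (7.32 to 7.59). The same gap was present for Actg2 and Cnn1. Mylk ran from 10.02 ± 0.20 at 0.04 mg/m3 for 1 week to 11.29 ± 0.070 at 0.04 mg/m3 for 4 weeks, and its neighbouring groups overlapped throughout. Myl9 had the narrowest span of group means, with 8.68 ± 0.21 at 0.60 mg/m3 and 9.88 ± 0.20 at 0.04 mg/m3, both for 4 weeks. For Myh11 the gap lay between 0.08 mg/m3 at 4 weeks (10.16 to 10.57) and the 1-week controls (9.59 to 10.04), and for Acta2 between 0.04 mg/m3 at 1 week (7.57 to 7.91) and 0.04 mg/m3 at 4 weeks (6.79 to 7.52).

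After 4 weeks, 8 of the 9 smooth muscle genes rose at 0.04 mg/m3 and 8 at 0.08 mg/m3, the 2 lowest concentrations, while the 0.15 and 0.60 mg/m3 groups had no called member. Des rose the most, 3.25-fold at 0.04 mg/m3 and 2.94-fold at 0.08 mg/m3. The member that did not pass at either was Mylk. At 0.04 mg/m3 the median difference of the 9 genes was 1.03 on the log2 scale, against 0.016 over all genes, and 8.29% of all genes were called higher. At 0.08 mg/m3 the members' median was 0.87, against -0.002 over all genes, of which 5.67% were called higher. These comparisons share the 5 control arrays. With arrays centred on their median, the share of higher genes among all called genes was 38.6% at 0.04 mg/m3, against 64.2% as deposited, and at 0.08 mg/m3 it was 39.2%, against 66.4%; the called members and their direction were the same under it.

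**Figure D2:**
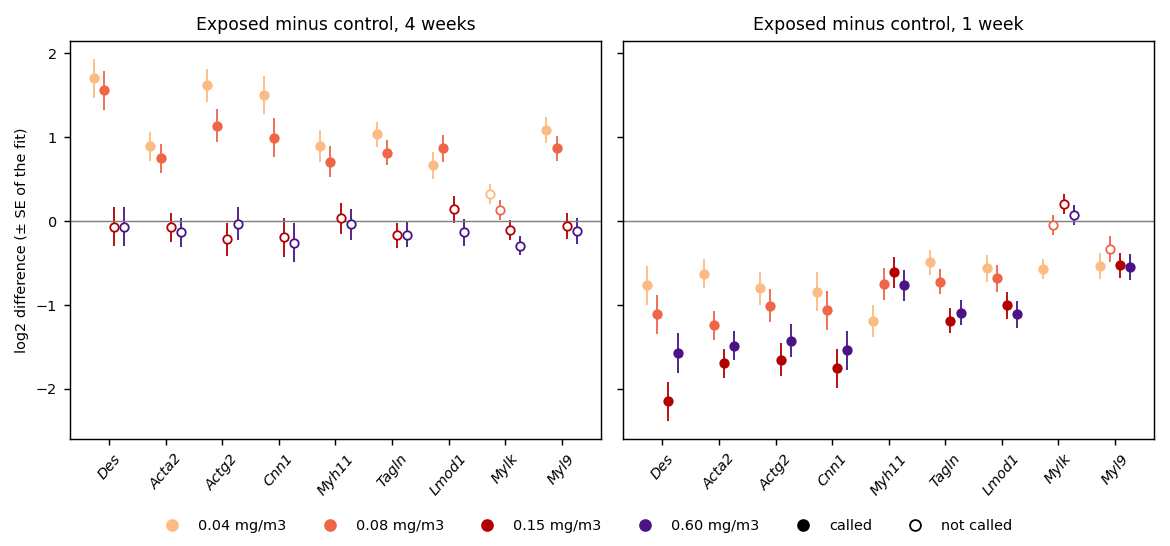
Log2 difference between exposed and control arrays (y axis, ± SE) for the 9 genes (x axis), coloured by concentration, at 4 weeks (left) and 1 week (right); filled points were called at an adjusted p under 0.05. At 4 weeks the filled points all lie above 0 and belong to 0.04 and 0.08 mg/m3, and at 1 week they all lie below 0.

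Among the filament and actin genes, Des gave the clearest separation. Its 5 arrays at 0.04 mg/m3 read 8.95, 8.85, 9.43, 9.21 and 9.14, those at 0.08 mg/m3 9.57, 8.89, 8.58, 9.68 and 8.15, and the controls 7.59, 7.43, 7.33, 7.39 and 7.32. Every exposed array lay above every control. The log2 difference was 1.70 ± 0.23 at 0.04 mg/m3 (adjusted p = 4.24e-06) and 1.56 ± 0.23 at 0.08 mg/m3 (adjusted p = 2.81e-05). Gamma smooth muscle actin, Actg2, read 9.66, 9.60, 10.12, 10.11 and 9.84 at 0.04 mg/m3, 8.88, 9.50, 9.04, 10.32 and 9.20 at 0.08 mg/m3, and 8.12, 8.41, 8.31, 8.30 and 8.10 in controls. Its groups did not overlap either, and it rose by 1.62 ± 0.20 (adjusted p = 7.44e-07) and 1.14 ± 0.20 (adjusted p = 0.000188). The alpha actin gene Acta2, a marker of smooth muscle and of contractile fibroblasts, read 7.13, 6.79, 7.52, 7.37 and 7.34 at 0.04 mg/m3, 6.92, 7.23, 6.70, 7.88 and 6.71 at 0.08 mg/m3, and 6.48, 6.34, 6.48, 6.13 and 6.24 in controls. All exposed arrays again lay above the controls, with smaller differences of 0.89 ± 0.17 (adjusted p = 0.000498) and 0.75 ± 0.17 (adjusted p = 0.00407). Fitted on the compared arrays alone, Acta2 was no longer called at 0.08 mg/m3 (adjusted p = 0.0526).

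Of the actin-binding genes, Cnn1, whose product restrains myosin, read 9.47, 9.40, 9.82, 9.73 and 9.57 at 0.04 mg/m3, 8.45, 9.18, 8.89, 10.18 and 8.77 at 0.08 mg/m3, and 8.18, 8.195, 8.08, 8.09 and 7.93 in controls. The exposed arrays were all higher, and the log2 differences were 1.503 ± 0.23 (adjusted p = 1.96e-05) and 0.997 ± 0.23 (adjusted p = 0.00418). For Tagln, an actin cross-linking protein, the arrays read 11.42, 11.10, 11.62, 11.59 and 11.48 at 0.04 mg/m3, 10.76, 11.41, 11.11, 11.92 and 10.94 at 0.08 mg/m3, and 10.56, 10.38, 10.38, 10.38 and 10.33 in controls. It rose by 1.03 ± 0.15 (adjusted p = 6.7e-06) and 0.82 ± 0.15 (adjusted p = 0.000302), with no overlap of arrays. Lmod1, the dimmest member, read 5.59, 5.16, 5.58, 5.82 and 5.51 at 0.04 mg/m3, 6.38, 5.72, 5.31, 6.06 and 5.20 at 0.08 mg/m3, and 4.93, 4.98, 4.75, 4.51 and 5.14 in controls. Its highest control array nearly reached the lowest exposed array, and the differences were 0.67 ± 0.16 (adjusted p = 0.00411) and 0.87 ± 0.16 (adjusted p = 0.000389). Lmod1 and Des differed from the others in which array was high at 0.08 mg/m3: replicate 1 held the highest Lmod1 and the second highest Des there, but the lowest Actg2, Cnn1, Tagln, Myl9, Mylk and Myh11.

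The myosin genes Myl9 and Myh11 were called in the main fit, and the kinase gene Mylk was not. Myl9, the light chain that the kinase phosphorylates, read 9.80, 9.59, 10.12, 10.01 and 9.88 at 0.04 mg/m3, 9.20, 9.79, 9.54, 10.39 and 9.38 at 0.08 mg/m3, and 8.98, 8.76, 8.78, 8.80 and 8.65 in controls. It rose by 1.09 ± 0.15 (adjusted p = 5.43e-06) and 0.87 ± 0.15 (adjusted p = 0.000215). The heavy chain gene Myh11 read 10.55, 10.18, 10.59, 10.63 and 10.57 at 0.04 mg/m3, 10.16, 10.42, 10.16, 10.57 and 10.26 at 0.08 mg/m3, and 9.66, 9.78, 9.43, 9.49 and 9.68 in controls. Both exposed groups stood above all controls, by 0.90 ± 0.19 (adjusted p = 0.00106) and 0.71 ± 0.19 (adjusted p = 0.012). The kinase gene Mylk read 11.38, 11.20, 11.27, 11.34 and 11.27 at 0.04 mg/m3, 10.79, 11.21, 11.08, 11.37 and 11.09 at 0.08 mg/m3, and 11.15, 10.97, 10.91, 10.96 and 10.88 in controls. Its arrays at 0.04 mg/m3 all exceeded the controls, but the difference of 0.32 ± 0.12 did not pass (adjusted p = 0.0639), nor did 0.13 ± 0.12 at 0.08 mg/m3 (adjusted p = 0.532). With the 2 Mylk probe sets averaged the first was 0.34 (adjusted p = 0.0244), and without control replicate 1 it was 0.36 (adjusted p = 0.0421). It was called under array weights as well (0.34, adjusted p = 5.97e-05; 0.20, adjusted p = 0.0455, at 0.08 mg/m3), and at 0.04 mg/m3 in a fit of the compared arrays alone (adjusted p = 0.00279). All 9 members, Mylk included, had non-overlapping arrays at 0.04 mg/m3, where 12.3% of all genes did in that direction, and 8 did at 0.08 mg/m3, against 3.99%.

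At 0.15 and 0.60 mg/m3 for 4 weeks the smooth muscle genes were near their controls. At 0.15 mg/m3, limma called 0 members, and 0 had an unadjusted p under 0.05, where 3.50% of all genes were called. The median difference was -0.074, with Actg2 lowest at -0.21 ± 0.20 (adjusted p = 0.72) and Lmod1 highest at 0.14 ± 0.16 (adjusted p = 0.79). Des read 7.30, 7.34, 7.19, 7.63 and 7.27 there, which overlapped its controls. At 0.60 mg/m3 limma again called 0 members, where 17.4% of all genes were called, and 1 had an unadjusted p under 0.05. That gene was Mylk, which read 10.56, 10.75, 10.56, 10.80 and 10.73, all below the controls, a difference of -0.29 ± 0.12 (adjusted p = 0.0823). It was called lower under 3 alternatives, with arrays weighted, with arrays centred on their median, and in a fit of the compared arrays alone. Des at 0.60 mg/m3 read 6.82, 7.29, 7.41, 7.54 and 7.68, a difference of -0.069 ± 0.23 from the controls (adjusted p = 0.883).

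Between neighbouring concentrations at 4 weeks, the difference lay between 0.15 and 0.08 mg/m3. There 8 of 9 members were lower at 0.15 mg/m3, with a median of -0.92, and Mylk was not called (-0.23 ± 0.12, adjusted p = 0.158). Mylk was called lower there with its probe sets averaged (-0.36, adjusted p = 0.0141) and under array weights (-0.305, adjusted p = 0.00123). Of all genes, 10.5% were called lower, and the all-gene median was -0.015. With arrays centred on their median, 62.3% of all called genes were higher, against 43.4% as deposited. Des had the largest difference, -1.63 ± 0.23 (adjusted p = 7.01e-06), followed by Actg2 at -1.35 ± 0.20 (adjusted p = 9.18e-06) and Cnn1 at -1.19 ± 0.23 (adjusted p = 0.000396). All 8 called members had every 0.15 mg/m3 array below every 0.08 mg/m3 array, which held for 5.70% of all genes. Between 0.08 and 0.04 mg/m3, 0 members were called and 2 had an unadjusted p under 0.05, against 0.00744% of all genes called. Between 0.60 and 0.15 mg/m3, 0 members were called and 0 had an unadjusted p under 0.05, against 2.87% of all genes called; there centring moved the share of higher genes among those called to 55%, against 66.8%.

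After 1 week, smooth muscle genes fell at every concentration relative to the 1-week controls. All 9 members were lower at 0.04 mg/m3, 7 at 0.08 mg/m3, 8 at 0.15 mg/m3 and 8 at 0.60 mg/m3, and 0 were higher at any of them. The shares of all genes called lower were 11.8%, 23.5%, 33.7% and 32.3% in the same order, so much of the array moved as well. The members' medians were -0.63, -0.75, -1.19 and -1.11, while the all-gene medians lay between -0.029 and 0.065. All exposed arrays lay below all controls for 4, 5, 6 and 7 members from the lowest to the highest concentration, against 4.67%, 4.56%, 27.3% and 26.1% of all genes. All 4 comparisons use the same 5 controls, which lay between -75.2 and -43.6 on the first principal component, beside the 0.04 mg/m3 arrays (-84.9 to -62.8) and below all arrays at 0.15 and 0.60 mg/m3 (-3.01 to 14.03). The 0.08 mg/m3 arrays reached into both ranges, from -64.7 to 5.46. Tagln at 0.04 mg/m3 was no longer called without control replicate 1 (-0.41, adjusted p = 0.0513).

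Des had the deepest fall, at 0.15 mg/m3. It read 9.80, 9.82, 9.47, 9.57 and 9.34 at 0.04 mg/m3, 8.56, 8.15, 7.96, 8.22 and 8.19 at 0.15 mg/m3, 8.17, 9.27, 9.33, 8.63 and 8.57 at 0.60 mg/m3, and 10.67, 9.83, 11.01, 10.63 and 9.67 in the 1-week controls. Of these exposed groups only the 0.04 mg/m3 arrays overlapped the controls, and the differences were -0.76 ± 0.23 (adjusted p = 0.0149), -2.15 ± 0.23 (adjusted p = 5.25e-11) and -1.57 ± 0.23 (adjusted p = 9.78e-08). The fall at 0.15 mg/m3 was 4.43-fold. Cnn1 read 9.04, 8.67, 8.45, 8.70 and 8.53 at 0.15 mg/m3 and 10.95, 9.98, 11.03, 10.48 and 9.73 in controls, a difference of -1.75 ± 0.23 (adjusted p = 6.46e-09). Acta2 read 6.88, 6.81, 6.69, 6.45 and 6.63 at 0.15 mg/m3 and 8.92, 8.11, 8.43, 8.59 and 7.87 in controls, a difference of -1.69 ± 0.17 (adjusted p = 1.21e-11). Both lay wholly below their controls, as did Actg2, with -1.65 ± 0.20 (adjusted p = 5.13e-10), Tagln, with -1.19 ± 0.15 (adjusted p = 1.73e-09), and Lmod1, with -1.005 ± 0.16 (adjusted p = 4.1e-07). At 0.60 mg/m3 these 6 genes fell by between 1.09 and 1.57.

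After 1 week at the 3 higher concentrations, Myl9, Myh11 and the kinase gene Mylk changed less than Des, Acta2, Actg2, Cnn1 and Tagln. The exception was Myh11, whose fall slightly exceeded that of Tagln at 0.08 mg/m3. Myl9 differed by -0.54 ± 0.15 (adjusted p = 0.00957) at 0.04 mg/m3, -0.33 ± 0.15 (adjusted p = 0.069) at 0.08 mg/m3, and -0.55 ± 0.15 (adjusted p = 0.00166) at 0.60 mg/m3. Myh11 had its largest fall at 0.04 mg/m3, where it read 8.69, 8.88, 8.86, 8.39 and 8.37, against 10.04, 9.64, 9.92, 9.94 and 9.59 in controls, a difference of -1.19 ± 0.19 (adjusted p = 8.56e-05). The kinase Mylk fell at 0.04 mg/m3 alone among the concentrations. It read 10.16, 9.97, 10.17, 9.70 and 10.09 there, against 10.70, 10.51, 10.67, 10.61 and 10.46 in controls, with no overlap (-0.57 ± 0.12, adjusted p = 0.000901). At the 3 higher concentrations, in rising order, its differences were -0.043 ± 0.12 (adjusted p = 0.798), 0.20 ± 0.12 (adjusted p = 0.129) and 0.077 ± 0.12 (adjusted p = 0.587). With both Mylk probe sets averaged, the last 2 were -0.23 (adjusted p = 0.0489) and -0.31 (adjusted p = 0.00877). The sign of Mylk at 0.15 and 0.60 mg/m3 for 1 week thus rests on the probe set. The 2 Mylk probe sets correlated at 0.60 over 50 arrays and the 2 of Myh11 at 0.70, and in both genes the second was far dimmer.

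Step by step at 1 week, 3 members differed between 0.08 and 0.04 mg/m3: Mylk (0.53 ± 0.12, adjusted p = 0.000138) and Myh11 (0.44 ± 0.19, adjusted p = 0.0383) were higher at 0.08 mg/m3 and Acta2 was lower (-0.61 ± 0.17, adjusted p = 0.00211). This stood against 62.9% of all genes called, and the Myh11 call was lost without 0.04 mg/m3 replicate 4 or 5 or 0.08 mg/m3 replicate 3, 4 or 5, with differences of 0.25 to 0.43 and adjusted p-values of 0.0594 to 0.238. It was also lost with arrays centred on their median (0.41, adjusted p = 0.0559) and in a fit of the compared arrays alone (adjusted p = 0.164). Replicates 1 and 2 of the 0.08 mg/m3 group had Mylk at 10.03 and 10.17, near the 0.04 mg/m3 arrays, and its other 3 arrays at 10.73 or above. Between 0.15 and 0.08 mg/m3, 5 members were lower at 0.15 mg/m3, against 23.6% of all genes. They were Des (-1.04 ± 0.23), Cnn1 (-0.69 ± 0.23), Actg2 (-0.64 ± 0.20), Tagln (-0.46 ± 0.15) and Acta2 (-0.45 ± 0.17). Acta2 was no longer called without 0.08 mg/m3 replicate 1, 0.15 mg/m3 replicate 4 or 0.15 mg/m3 replicate 5, with an adjusted p of up to 0.122. Between 0.60 and 0.15 mg/m3, 0 members were called and 1 had an unadjusted p under 0.05, against 0.0149% of all genes called.

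The controls themselves differed between the times. In the 4-week controls 7 of 9 members were lower than in the 1-week controls, while Mylk was higher and Myh11 was not called. Of all genes, 38.2% were called lower and 35.2% higher. Des fell by 2.95 ± 0.23 (adjusted p = 5.09e-15), a 7.72-fold difference, Actg2 differed by -2.52 ± 0.20 (adjusted p = 3.39e-15) and Cnn1 by -2.33 ± 0.23 (adjusted p = 2.7e-12). Mylk read 11.15, 10.97, 10.91, 10.96 and 10.88 in the 4-week controls and 10.70, 10.51, 10.67, 10.61 and 10.46 in the 1-week controls, a difference of 0.39 ± 0.12 (adjusted p = 0.00322). With its probe sets averaged this was 0.13 (adjusted p = 0.253). Myh11 differed by -0.22 ± 0.19 (adjusted p = 0.287), but was called lower with its probe sets averaged (-0.41, adjusted p = 0.0178) and under array weights (-0.31, adjusted p = 0.0497). Age, exposure time and the handling of the arrays of a time cannot be told apart in these controls.

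The direction of the 1-week differences therefore depended on which controls were used. Changing the controls shifts each member's values by the control difference given above, so it is not a separate test. The groups then compared also differ in exposure time. Against the 4-week controls, 7 members were higher and 2 lower at 0.04 mg/m3, and 7 higher and 2 lower at 0.08 mg/m3. At 0.15 mg/m3, 4 were higher and 0 lower, and at 0.60 mg/m3, 6 were higher and 2 lower. Of the 13438 genes measured, 10973, 8697, 5729 and 6637 were called in either direction, in the same order. Of those called, 55.9%, 59.3%, 68.1% and 67.3% were higher, so much of the array moved as well. Des at 0.04 mg/m3 for 1 week was 2.19 above the 4-week controls, and -0.76 relative to its own. Myh11 was below both sets of controls at each concentration. The plot of both sets of differences shows that the 7 members other than Mylk and Myh11 changed sign at all 4 concentrations.

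**Figure D3:**
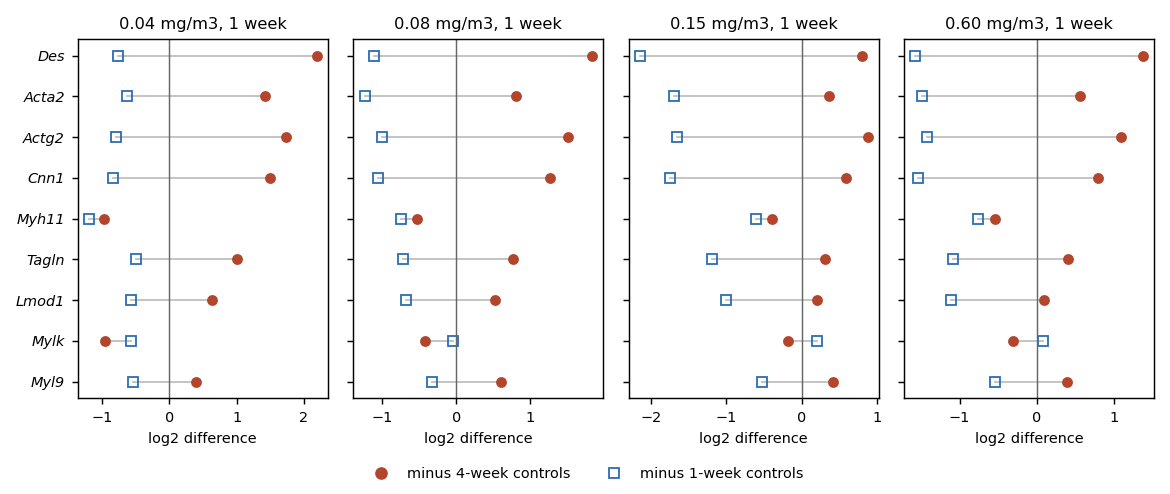
Log2 difference (x axis) of the 1-week arrays at each concentration from the 4-week controls (red circles) and from their own 1-week controls (blue squares), for the 9 genes (y axis). Des, Acta2, Actg2, Cnn1, Tagln, Lmod1 and Myl9 lie above 0 against the 4-week controls and below 0 against the 1-week controls in all 4 panels; Myh11 lies below 0 against both.

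The change at 4 weeks was compared with the change at 1 week, each against its own controls, by an interaction term. All 9 members had a higher change at 4 weeks at 0.04 mg/m3, 8 at 0.08 mg/m3, 7 at 0.15 mg/m3 and 7 at 0.60 mg/m3. The shares of all genes called higher in this test were 7.22%, 21.4%, 27.4% and 27.7% in the same order. At 0.04 mg/m3 the members' median was 1.62, against -0.041 over all genes, and Des differed by 2.47 ± 0.33 (adjusted p = 2.14e-06) and Mylk by 0.89 ± 0.17 (adjusted p = 0.00026). With arrays centred on their median the all-gene median was -0.12 and 36% of called genes were higher, against 60.1% as deposited. At 0.15 and 0.60 mg/m3 the term rests on the 1-week falls, since 0 members were called at 4 weeks. Mylk was not called at 0.15 mg/m3 (-0.30 ± 0.17, adjusted p = 0.12) or 0.60 mg/m3 (-0.37 ± 0.17, adjusted p = 0.0558). The call of Myh11 at 0.15 mg/m3 (0.65 ± 0.27, adjusted p = 0.0348) was lost without 1-week control replicate 1, 3 or 4, 4-week control replicate 3 or 4, or 1-week 0.15 mg/m3 replicate 3, 4 or 5, with differences of 0.51 to 0.62 and adjusted p-values of 0.0534 to 0.098.

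Over the 50 arrays, which share the group differences and the shift between times, 7 members moved closely together. Without Myh11 and Mylk, Pearson correlations of pairs ran from 0.75 to 0.98 over 21 pairs, and within groups, after the group means were removed, from 0.44 to 0.92. Mylk and Myh11 correlated with each other at 0.85 over the 50 arrays and at 0.82 within groups. Pairs with Mylk had a median correlation of -0.098 over the 50 arrays and 0.39 within groups. For pairs with Myh11 the medians were 0.18 and 0.45, so within groups both genes moved more with the rest. Both genes were read here from their brightest probe set alone. Both had lower correlations with the rest at 1 week than at 4 weeks. Mylk correlated with the mean of the other 8 at 0.85 over the 25 arrays of 4 weeks and -0.083 over the 25 of 1 week, and Myh11 at 0.97 and 0.53. The other 7 members had correlations of 0.81 to 0.98 at 4 weeks and 0.82 to 0.96 at 1 week. These are descriptions of arrays that share groups, with no test.

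**Figure D4:**
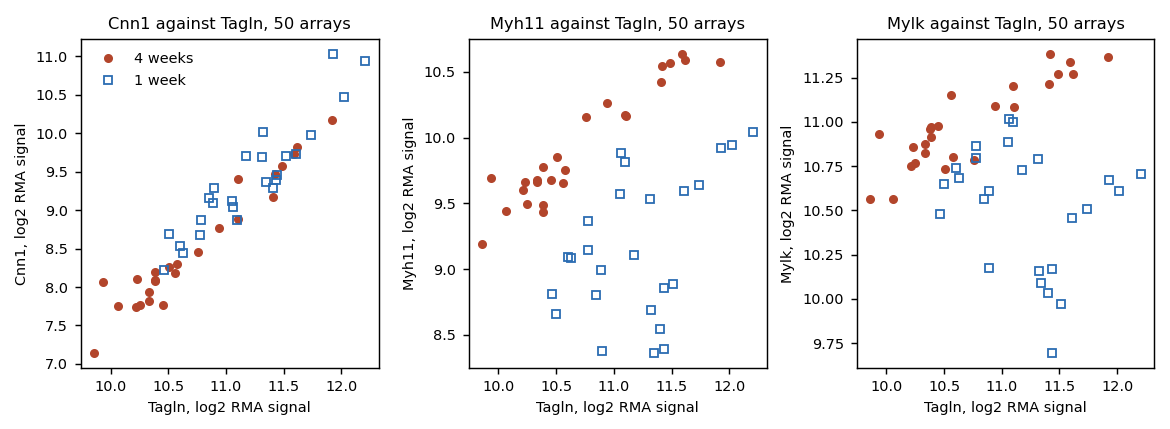
Log2 signals of Cnn1, Myh11 and Mylk (y axes) against that of Tagln (x axis) on 25 arrays of 4 weeks (filled circles) and 25 of 1 week (open squares). Cnn1 follows Tagln at both times (r = 0.97 and 0.93), whereas Mylk follows it at 4 weeks (r = 0.88) and not at 1 week (r = -0.24). With the group means removed, Mylk correlated with Tagln at 0.46 over the 50 arrays. Each gene is drawn from its brightest probe set.

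The genes whose profile over the 50 arrays was most like the members' mean, symbols beginning with LOC or RGD left out, were led by Tpm2, a tropomyosin that lies along the actin filament (r = 0.98). After it came Mustn1 (0.95), Olfml2b (0.94), Jph2 (0.93), Fbxl22 (0.93), S1pr3 (0.93), Col18a1 (0.92), Crispld2 (0.92), Flna (0.91) and Hmcn2 (0.91). Within groups their correlations were 0.69 to 0.92. Jph2 holds the calcium stores against the cell membrane in muscle, S1pr3 is a receptor for sphingosine 1-phosphate, Col18a1 is a basement membrane collagen and Flna cross-links actin. All 10 were higher at both 0.04 and 0.08 mg/m3 for 4 weeks, by 0.74 to 1.51 at 0.04 mg/m3 and 0.57 to 1.10 at 0.08 mg/m3, with adjusted p-values up to 0.0215, in comparisons that entered the choice.

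Other genes of the contractile machinery rose in part. Of 29 further genes of the filaments and their anchors, 13 were higher at 0.04 mg/m3 and 10 at 0.08 mg/m3 for 4 weeks, and 0 were lower at either. Of all genes, 8.29% and 5.67% were called higher at these concentrations, and 4.61% and 2.87% lower. At 0.04 mg/m3 the largest rises were of Ldb3, a Z-disc protein (1.74 ± 0.27, adjusted p = 3.02e-05), Synpo2, an actin-bundling protein (1.09 ± 0.14, adjusted p = 3.16e-06), Tpm2 (1.07 ± 0.14, adjusted p = 1.92e-06) and Sgca, the alpha-sarcoglycan of the muscle membrane (1.001 ± 0.20, adjusted p = 0.000649). At 0.08 mg/m3 Itga7, a laminin receptor of muscle, was among them (1.29 ± 0.16, adjusted p = 2.07e-06). Heart muscle markers rose at these concentrations too. The part of heart and skeletal muscle in the rises of Ldb3, Sgca and Itga7 was not tested. Of 28 genes that control contraction, 6 were higher at 0.04 mg/m3, and 4 were higher and 1 lower at 0.08 mg/m3. They were led by the calcium release channel Ryr2 (2.31 ± 0.40 at 0.04 mg/m3, adjusted p = 0.000113) and Pln, the calcium pump inhibitor (1.76 ± 0.27, adjusted p = 1.53e-05), both also strong heart muscle genes. Irag1, which relays cyclic GMP signals to calcium stores, rose by 0.99 ± 0.183 (adjusted p = 0.000277). At 0.15 mg/m3 for 4 weeks 1 of the 29 filament genes was higher and 1 of the 28 control genes lower. These counts lie near the share of all genes called there in either direction, 3.50%.

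Of 21 receptors that make smooth muscle contract or relax, 3 were higher and 1 lower at 0.04 mg/m3 for 4 weeks, where 8.29% of all genes were higher and 4.61% lower. At 0.08 mg/m3 2 were higher and 1 lower, where 5.67% of all genes were higher and 2.87% lower. The alpha-1 adrenergic receptor Adra1d rose by 0.51 ± 0.15 (adjusted p = 0.0201) at 0.04 mg/m3, as did the prostaglandin receptor Ptger3 (0.49 ± 0.13, adjusted p = 0.00822), and the substance P receptor Tacr1 fell at 0.08 mg/m3 (-0.82 ± 0.21, adjusted p = 0.0111). Of 24 regulators of the smooth muscle state, 4 were higher at 0.04 mg/m3, and 3 were higher and 1 lower at 0.08 mg/m3. Myocd, which encodes myocardin and is also a heart gene, rose by 0.78 ± 0.15 (adjusted p = 0.000498) at 0.04 mg/m3 and stood at 0.45 ± 0.15 (adjusted p = 0.0522) at 0.08 mg/m3. Its relative Mrtfa rose by 0.65 ± 0.12 (adjusted p = 0.000468) and 0.54 ± 0.12 (adjusted p = 0.00436). Serum response factor itself, Srf, did not pass at 0.04 mg/m3 (0.069 ± 0.085, adjusted p = 0.657), and was looked up because it is the partner of myocardin. Tgfb1, a cytokine that drives contractile genes in fibroblasts, rose by 0.56 ± 0.14 (adjusted p = 0.00582) at 0.04 mg/m3. At 0.15 mg/m3 for 1 week, 8 of the 29 filament genes were higher and 15 lower, and 5 of the 24 regulators were higher and 12 lower, where 33.8% of all genes were higher and 33.7% lower.

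Heart muscle markers moved with the smooth muscle genes at 4 weeks. Rat pulmonary veins are known to carry a sleeve of heart muscle. Of 17 markers, 15 were higher at 0.04 mg/m3 and 11 at 0.08 mg/m3, with medians of 2.02 and 1.46, and 0 were called at 0.15 or 0.60 mg/m3. Of all genes, 8.29% and 5.67% were called higher at 0.04 and 0.08 mg/m3. At 0.15 and 0.60 mg/m3, 3.50% and 17.4% were called in either direction. Actn2, the Z-disc alpha-actinin, rose by 2.36 ± 0.35 (adjusted p = 9.4e-06) and 2.35 ± 0.35 (adjusted p = 2.58e-05), and Tnnt2, heart troponin T, by 2.21 ± 0.41 (adjusted p = 0.000274) at 0.04 mg/m3. The summed linear signal of the 17 markers was 15629 to 22229 at 0.04 mg/m3 and 8077 to 18816 at 0.08 mg/m3, against 2803 to 7271 in the controls. At 1 week the lists parted: 0, 10, 8 and 12 heart markers were higher from the lowest to the highest concentration, and 0 were lower, while the smooth muscle members were lower. The shares of all genes called higher there were 15.1%, 25.1%, 33.8% and 32.8%. The heart markers' summed signal was 4355 to 8487 at 0.60 mg/m3 for 1 week, against 491 to 7693 in the 1-week controls. Their mean gene-centred log2 signal was uneven over these controls: -1.34, -1.55, -2.75, -0.31 and 0.18 on replicates 1 to 5.

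**Figure D5:**
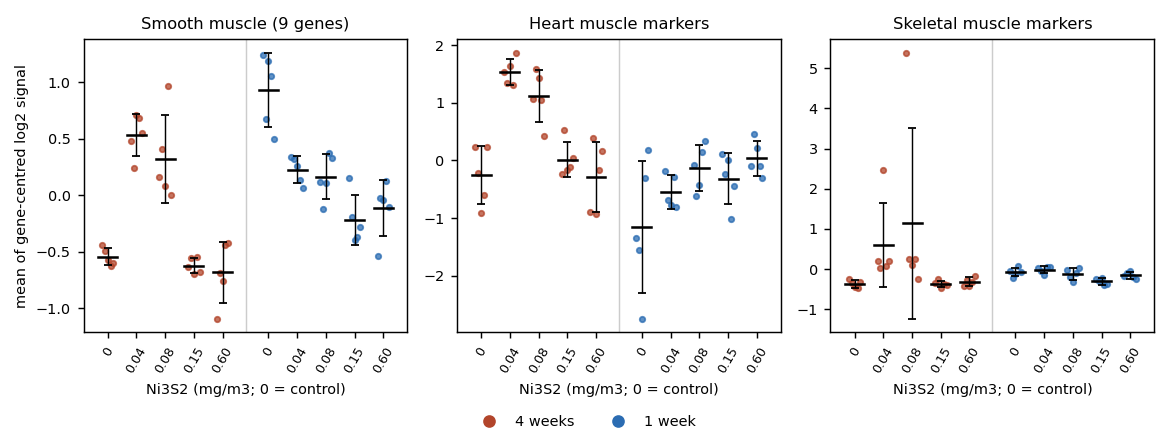
Mean of gene-centred log2 signal (y axis) over the 9 smooth muscle genes, 17 heart muscle markers and 11 skeletal muscle markers, for each array against Ni3S2 concentration (x axis), at 4 weeks (red, left) and 1 week (blue, right), with mean and SD of 5 arrays. Smooth and heart muscle genes are both high at 0.04 and 0.08 mg/m3 for 4 weeks, and 2 arrays stand apart for skeletal muscle. The 1-week controls are high for smooth muscle, and their replicates 1, 2 and 3 are low for heart muscle.

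Skeletal muscle markers stood out on 2 arrays. Their gene-centred mean was 5.39 on replicate 1 of 0.08 mg/m3 and 2.46 on replicate 3 of 0.04 mg/m3 at 4 weeks, and of the 11 markers Ckm and Eno3 were called higher in both groups. Of all genes, 8.29% were called higher at 0.04 mg/m3 and 5.67% at 0.08 mg/m3. Their summed signal ranged over 417 to 4225 at 0.04 mg/m3 and 282 to 28185 at 0.08 mg/m3, against 210 to 269 in controls. In a fit without both arrays, added after the data had been seen, 8 members were higher at 0.04 mg/m3, 8 were higher at 0.08 mg/m3, and 8 were lower at 0.15 than at 0.08 mg/m3. Des then rose by 1.63 ± 0.24 at 0.04 mg/m3 and 1.41 ± 0.24 at 0.08 mg/m3, and Lmod1 by 0.66 ± 0.16 and 0.71 ± 0.16.

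Markers of other cells in the tissue were counted beside the same comparisons. After 4 weeks, 8.29% of all genes were called higher and 4.61% lower at 0.04 mg/m3. At 0.08 mg/m3 the shares were 5.67% and 2.87%. All 6 B cell markers were higher at 0.04 and at 0.08 mg/m3 for 4 weeks, with a summed signal of 1017 to 1309 and 523 to 1298, against 380 to 578 in controls. Of 24 fibroblast and matrix markers, 10 and 7 were higher, among them Fbln1 (0.86 ± 0.15, adjusted p = 9.39e-05) and the collagen gene Col1a1 (0.86 ± 0.19, adjusted p = 0.00151) at 0.04 mg/m3. Of 12 pericyte markers, 3 of which are on other lists too, Kcnj8 (0.96 ± 0.17, adjusted p = 0.000118), Cspg4 and Pdgfrb were higher at both concentrations, and Trpc6 was lower at 0.08 mg/m3. The cartilage list had 0 of 13 genes called at either, and its defining gene Col2a1 read 3.13 to 4.02 over all arrays. None of the 8 club cell markers was called at either concentration. Of 7 nerve and Schwann cell markers, 1 was higher at 0.04 mg/m3, and the 5 mesothelium markers had 0 calls. For 9 alveolar type 1, 11 alveolar type 2 and 11 endothelium markers, 1 of each was lower at 0.04 mg/m3 and 0 were called at 0.08 mg/m3, and of 7 ciliated cell markers 1 was lower at 0.08 mg/m3. The part of heart muscle, skeletal muscle, B cells, fibroblasts and pericytes in the smooth muscle result was not tested.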

How the data were processed

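Arrays of 50 rats in 10 groups of 5 were used, grouped by the labels' concentration and exposure time. The deposited values are log2 signals of 31042 probe sets, made by the authors with RMA in Partek, per the submitters' processing notes; versions, scan dates and the arrays normalized together were not given in these sources. Array medians were 5.25 to 5.61, and no pair of arrays was alike (at least 31031 probe sets differed). Nothing was transformed further. The platform table gave 1 symbol to 19063 probe sets, several to 572 and none to 11407, and only the first were used; 3985 of the 13438 genes had several probe sets, of which the brightest was kept. Symbols matched current RefSeq identifiers for 18983 probe sets, and 0 changed.

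A linear model with a mean per group was fitted to all genes with limma 3.58.1 in R 4.3.3 (eBayes, two-sided, Benjamini-Hochberg over 13438 genes in each of 19 comparisons, called at an adjusted p under 0.05). The fit was tested on simulated data. P-values rest on 1 spread per gene between arrays within groups, 1 rat each, pooled over all 10 groups and moderated by eBayes. They do not measure the spread of the compared groups alone. The arrays' replicate numbers were not treated as pairs in the reported fit. All 9 members are named; of other lists up to 4 called genes with the largest differences were named, except Srf; 10 like genes were taken by correlation. Members, lists and rules were chosen with earlier results of these data known. Promoters are RefSeq entries (GRCr8). Alternatives were array weights, the dimmest 25% of genes left out, median centring, quantile normalization, an eBayes trend, mean probe sets, a replicate block, the compared arrays only, the 4-week controls for 1-week groups, and each array left out; a fit without 2 arrays was added after seeing the data.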

Additional observations from a re-analysis of the deposited data

Results flagged for a closer look

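Of 90 sets of 5 arrays, 1 per member and group, 4 held an array whose gap to the next was large for the range of its set, and chance gives this in about 1 of 20 sets. Actg2 on replicate 1 of 0.60 mg/m3 at 4 weeks read 7.53, against a mean of 8.39 on the other 4 arrays. Myh11 read 10.18 on replicate 2 of 0.04 mg/m3 at 4 weeks, against 10.59 on the others, and 9.50 on replicate 3 of 0.15 mg/m3 at 4 weeks, against 9.67. Tagln read 10.56 on replicate 1 of the 4-week controls, against 10.37.

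The change against controls differed between the exposure times by the interaction term for 9 members at 0.04 mg/m3, 8 at 0.08 mg/m3, 7 at 0.15 mg/m3 and 7 at 0.60 mg/m3, all with the higher change at 4 weeks. The 1-week controls, high for most members, enter all 4 of these tests.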

How the results depend on the processing

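Most member values kept their direction and their side of the threshold: the 8 rises at 0.04 and at 0.08 mg/m3 for 4 weeks kept both under every alternative but for Acta2 at 0.08 mg/m3 in a fit of the compared arrays alone (adjusted p = 0.0526). Setting the 1-week groups against the 4-week controls shifts each member's values by the difference between the controls, and is not a separate test. It turned the direction of 30 of the 36 member differences at 1 week. At 0.04 mg/m3 these were Des 2.19, Acta2 1.42, Actg2 1.73, Cnn1 1.495, Tagln 1.002, Lmod1 0.64 and Myl9 0.40. At 0.08 mg/m3 they were Des 1.84, Acta2 0.81, Actg2 1.51, Cnn1 1.27, Tagln 0.77, Lmod1 0.52 and Myl9 0.61. At 0.15 mg/m3 they were Des 0.80, Acta2 0.35, Actg2 0.87, Cnn1 0.58, Tagln 0.31, Lmod1 0.20, Mylk -0.18 and Myl9 0.41, and 4 members were called there, against 8. At 0.60 mg/m3 they were Des 1.38, Acta2 0.56, Actg2 1.10, Cnn1 0.80, Tagln 0.40, Lmod1 0.094, Mylk -0.31 and Myl9 0.40. Averaged probe sets turned Mylk at 1 week to -0.23 at 0.15 mg/m3, -0.31 at 0.60 mg/m3 and -0.080 for 0.15 against 0.08 mg/m3, where Myh11 was -0.14; Mylk in the interaction was 0.10 at 0.15 mg/m3 and 0.050 at 0.60 mg/m3, and Myh11 at 0.15 mg/m3 for 4 weeks was -0.006. Array weights turned Mylk at 0.08 mg/m3 for 1 week to 0.15, and Mylk and Myh11 for 0.15 against 0.08 mg/m3 at 1 week to -0.015 and -0.30. The cause was not tested. With single arrays left out, values that changed sign ranged from -0.157 to 0.085 (Mylk, 0.08 mg/m3, 1 week), -0.036 to 0.325 (Myh11, 0.15 against 0.08 mg/m3, 1 week), -0.011 to 0.075 (Myh11, 0.15 mg/m3, 4 weeks), -0.152 to 0.063 (Des, 0.60 mg/m3, 4 weeks), -0.099 to 0.14 (Actg2, same groups) and -0.111 to 0.056 (Myh11, same groups); none of these was called. No array left out moved a count of called members by over 1.5 times. Calls were gained without single arrays for Myl9 at 0.08 mg/m3 for 1 week (1-week control replicate 5, -0.40; 0.08 mg/m3 replicate 5, -0.39), for Lmod1 (0.15 mg/m3 replicate 1, -0.42) and Mylk (0.08 mg/m3 replicate 3, 0.36, or 4, 0.31) at 0.15 against 0.08 mg/m3 at 1 week, and in the interaction for Myl9 at 0.15 and 0.60 mg/m3 and Mylk at 0.60 mg/m3. Array weights also called Myl9 for 0.08 against 0.04 mg/m3 (0.34) and Lmod1 and Myl9 for 0.15 against 0.08 mg/m3 (-0.46 and -0.38) at 1 week, median centring called Myl9 at 0.08 mg/m3 for 1 week (-0.35), and averaged probe sets called Mylk in the interaction at 0.08 mg/m3 (0.38). In the interaction, Myl9 was called at 0.15 mg/m3 under 5 alternatives (0.47 to 0.58) and Mylk there under array weights (-0.24) and the compared arrays alone (-0.30); at 0.60 mg/m3 Mylk was called under 4 (-0.37 to -0.304) and Myl9 under array weights and the compared arrays alone (0.49 and 0.43). Counts of called members moved to 1, against 0, for 0.60 mg/m3 at 4 weeks under array weights, median centring and the compared arrays alone, and for 0.60 against 0.15 mg/m3 at 1 week under array weights.

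Counts over all genes moved by over 1.5 times under array weights at 4 weeks: 5283 against 1734 as reported at 0.04 mg/m3, 3440 against 1147 at 0.08, 1994 against 470 at 0.15, 4297 against 2334 at 0.60, 5236 against 2494 for 0.15 against 0.08, 1361 against 385 for 0.60 against 0.15, 5 against 1 for 0.08 against 0.04, 3049 against 1613 for the interaction at 0.04, and 209 against 2 for 0.60 against 0.15 mg/m3 at 1 week. With the compared arrays alone they were 3902 against 1734, 1101 against 470 and 3551 against 2334 at 0.04, 0.15 and 0.60 mg/m3 for 4 weeks, 707 against 385 for 0.60 against 0.15 and 0 against 1 for 0.08 against 0.04, and at 1 week 2274 against 3614 at 0.04, 3721 against 6537 at 0.08, 1525 against 6284 for 0.15 against 0.08 and 0 against 2 for 0.60 against 0.15 mg/m3. With the 4-week controls they were 10973 against 3614 at 0.04 mg/m3 and 5729 against 9063 at 0.15 mg/m3 for 1 week, and without the 2 arrays high in skeletal muscle genes 1151 against 1734 at 0.04 mg/m3 for 4 weeks. With the replicate number as a block, the counts of called members were 8 at 0.04 and 8 at 0.08 mg/m3 for 4 weeks and 9, 7, 8 and 8 at 1 week, and no call of a member changed. Of 5 same-numbered pairs, 0 to 3 correlated above 0.1 in each comparison, and the highest r was 0.61 (0.08 against 0.04 mg/m3, 1 week). Pairs with unlike numbers were not examined, so this does not settle whether the numbers pair samples. The signal of Lmod1 lies near the middle of the array's genes, which limits its precision.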
